A study of Drosophila melanogaster with 2 samples.

Results

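The regions described here are the Hnf4 regions of chromosome 4 of Drosophila melanogaster. They were chosen by position alone, as all regions of the authors' relaxed pooled list for build dm6 that lay on chromosome 4. There were 669 of them among 30000 regions in all, and 38 of the 669 were optimal peaks, out of 5817 in the genome. The other 631 are called weaker regions. The study mapped Hnf4 by chromatin immunoprecipitation with sequencing in 2 biological replicates that form a single group. The larvae, males and females pooled, were of the third instar and had begun to wander. They came from a transgenic line that stably expresses Hnf4 with green fluorescent protein at its C terminus. Whole animals were used, so a site bound weakly in many cells and a site bound strongly in few cannot be told apart. The labels' description gives an antibody against green fluorescent protein, while their antibody field names Hnf4, and 1 control served both replicates. Their labels call them biological replicates; how the animals were collected for each is not given in the sources used here.

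Hnf4 is a nuclear receptor, a transcription factor of the family that also holds hormone and lipid receptors, and in flies it acts in the metabolism of fat and sugar. Chromosome 4 is the smallest chromosome of the fly, called the dot chromosome. Most of it is packaged with heterochromatin protein HP1 and is rich in transposable elements, yet many of its genes are transcribed, and POF, a protein that binds this chromosome in particular, coats it.

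The sequences under the strongest peaks are shown first, since they are the sites on which the account of this chromosome rests. They are read 5′ to 3′ on the plus strand of the Release 6 genome of RefSeq (build dm6), up to 100 bp on either side of the summit and shortened where an untranslated region began. The strongest peak of all is not printed because its summit lay in a 3′ UTR. None of the 4 windows holds any motif that was searched, so no letter is in capitals.
zfh2 upstream peak, chr4:497816-498016: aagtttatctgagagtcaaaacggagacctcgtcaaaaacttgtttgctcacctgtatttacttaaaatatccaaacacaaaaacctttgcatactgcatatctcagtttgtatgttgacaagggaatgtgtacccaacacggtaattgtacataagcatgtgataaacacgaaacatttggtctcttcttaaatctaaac
gw promoter peak, chr4:659984-660167: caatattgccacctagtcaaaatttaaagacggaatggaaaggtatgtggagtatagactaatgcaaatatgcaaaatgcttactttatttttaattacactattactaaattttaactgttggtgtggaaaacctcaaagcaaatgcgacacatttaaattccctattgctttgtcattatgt
ey promoter peak, chr4:697557-697688: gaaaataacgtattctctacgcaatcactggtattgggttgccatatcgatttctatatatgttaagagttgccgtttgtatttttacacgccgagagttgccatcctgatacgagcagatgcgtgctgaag
RpS3A promoter peak, chr4:67208-67364: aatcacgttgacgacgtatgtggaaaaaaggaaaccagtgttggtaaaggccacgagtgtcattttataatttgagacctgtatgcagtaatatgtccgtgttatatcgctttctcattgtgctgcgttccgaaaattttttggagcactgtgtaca

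Chromosome 4 held many regions and few strong ones. Its 669 regions made up 2.23% of the list, while its 1.35 Mb is 1.01% of the length of the 6 chromosome arms. That is 496 regions per Mb, against 191 (arm 2R) to 247 (arm 3L) on the other 5 arms. The regions covered 18.5% of chromosome 4, against 6.80% to 8.88% of each other arm. Of the 669, 38 or 5.68% were optimal peaks (exact 95% interval 4.05% to 7.71%), against 19.4% of all regions in the genome and 17.7% to 21.0% on each of the other arms. Optimal peaks numbered 28.2 per Mb on chromosome 4 and 39.9 to 48.4 per Mb elsewhere. The chromosome was thus the most crowded with regions and the least crowded with optimal peaks of the 6 arms. Intervals here and below are Clopper-Pearson intervals, cover counting error only, and treat neighbouring regions as independent.

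The same contrast appeared in each replicate taken alone. Replicate 1 had 593 regions on chromosome 4 and replicate 2 had 622. In replicate 1, 34 of these, or 5.73%, were among its 5817 strongest regions, as many as there are optimal peaks. On the other arms that share was 17.9% to 21.1%, and in the whole replicate 1 list it is 19.4% by construction. In replicate 2 there were 37, or 5.95%, against 18.3% to 22.0% on the other arms and again 19.4% in the whole list. When the pooled list was split by signal value into bands of 6000 regions, chromosome 4 held 0.65% of the strongest band, 1.32% of the next, then 2.62%, 3.60% and 2.97% of the weakest. In replicate 1 its share went from 0.60% in the strongest band to 3.17% in the weakest, and in replicate 2 from 0.683% to 2.43%, with 2.73% in the band before. In all 3 lists chromosome 4 was below its share of the length in the strongest band and above it in every other band.

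**Figure D1:**
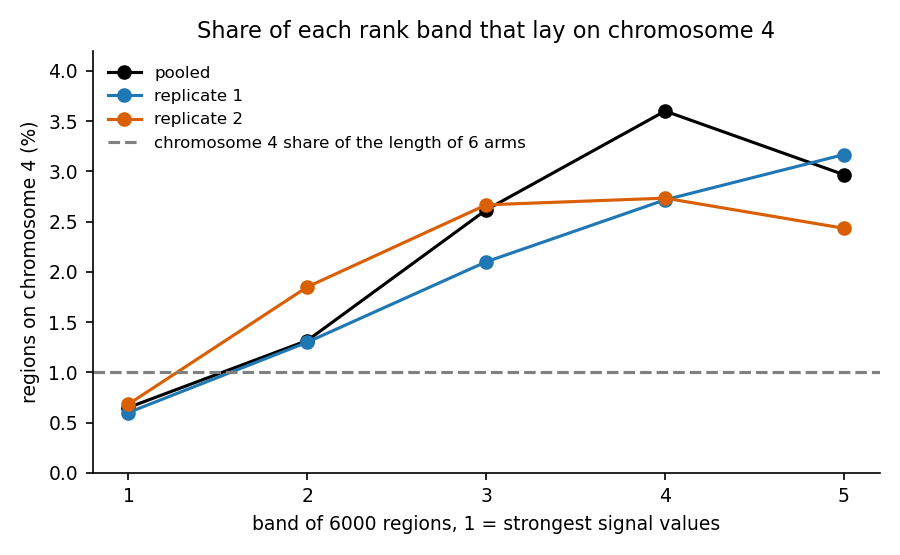
Share of each band of 6000 regions that lay on chromosome 4 (y axis, %), with bands ordered from the strongest to the weakest signal values (x axis), for the pooled list and each replicate list. The dashed line marks the chromosome's 1.01% share of the length of the arms; every list starts below it (0.60% to 0.683%) and lies above it from the second band on.

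The authors' signal value measures the enrichment of a region; its scale is not given in the sources used here, and values were compared only within a list. In the pooled list the 38 optimal peaks had signal values from 67.5 to 294.8 with a median of 87.8, and the 631 weaker regions from 15.8 to 66.4 with a median of 22.5. On the other arms the median of optimal peaks was 111 to 119 and that of weaker regions 24.7 to 26.2. The highest value on each other arm was between 1350 and 2177, far above the 294.8 of chromosome 4. Those arms had 1010 to 1360 optimal peaks each, and the highest of many values tends to exceed the highest of 38. The authors' -log10 q values ran from 1.61 to 2.37 in the optimal peaks and from 0.264 to 1.59 in the weaker regions.

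The strongest peak, chr4:1113201-1113484, had a signal value of 294.8 in the pooled list, 171.1 in replicate 1 and 122.2 in replicate 2. Its summit lay in the 3′ UTR of Cals, which encodes a calsyntenin, a cadherin-related membrane protein of synapses, 9622 bp downstream of the nearest TSS. The transcription unit of sv, a Pax family gene on the opposite strand, ends at position 1113317 within the same region. The peak was among the strongest regions of both replicates, at rank 630 in replicate 1 and 667 in replicate 2. Next came chr4:497762-498038, 3894 bp upstream of the TSS of zfh2, a zinc finger homeodomain factor, with 279.4 in the pooled list, 199.6 in replicate 1 and 83.1 in replicate 2. It was the highest chromosome 4 value in replicate 1. At the promoter of zfh2 itself, 193 bp upstream of the TSS, the peak was much weaker, with 68.9 pooled, 49.9 in replicate 1 and 13.1 in replicate 2.

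The third strongest peak lay 84 bp upstream of a TSS of gw, whose protein Gawky carries out silencing by microRNAs, with signal values of 266.7 pooled, 147.9 in replicate 1 and 122.8 in replicate 2. A second gw peak, chr4:660606-660751, had 71.2 pooled, 37.3 in replicate 1 and 39.8 in replicate 2. The promoter of ey, the Pax6 gene of eye development, had a peak 32 bp upstream of a TSS with 242.4 pooled, 176.7 in replicate 1 and 68.9 in replicate 2. These peaks were higher in replicate 1 than in replicate 2 except for the second one at gw, but the replicate lists have scales of their own and such a gap is no difference in binding. RpS3A, which encodes a protein of the small ribosomal subunit, had a peak 57 bp upstream of its TSS with 197.3 pooled, 137.1 in replicate 1 and 72.5 in replicate 2. The peak at chr4:424711-424933 lay far from any promoter, with the TSS of lgs 19101 bp away, and had 184.0 pooled, 86.4 in replicate 1 and 95.5 in replicate 2.

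Of the next 4 peaks, 3 lay close upstream of a promoter. Mpv17, the relative of a mammalian mitochondrial inner membrane protein, had 157.7 pooled, 92.2 in replicate 1 and 66.8 in replicate 2. PlexA, a receptor for semaphorins in axon guidance, had 148.3, 70.5 and 78.6 in the same order. Sox102F, an HMG box transcription factor, had 130.6, 68.4 and 60.5. The last of the 4, chr4:696827-696978, lay between ey and myo, a gene for a TGF-beta ligand, with 122.1 pooled, 43.9 in replicate 1 and 74.0 in replicate 2, and was the only one of the 10 strongest that was not among the strongest regions of both replicates.

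At the lower edge of the optimal set stood the promoter of Crk, a signalling adaptor, with a pooled signal value of 68.9, then that of PIP4K, a lipid kinase, with 67.6, and an intron of pan, the TCF factor of Wnt signalling, with 67.5. Just outside it were regions at the promoters of Arl4 with 66.4, Asator with 64.6 and Zip102B with 63.9. Asator and Zip102B also had optimal promoter peaks, described below. The values on either side of the edge ran on without a gap. Optimal peaks of the series are the 5817 strongest regions of the pooled list, so the edge is a rank.

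**Figure D2:**
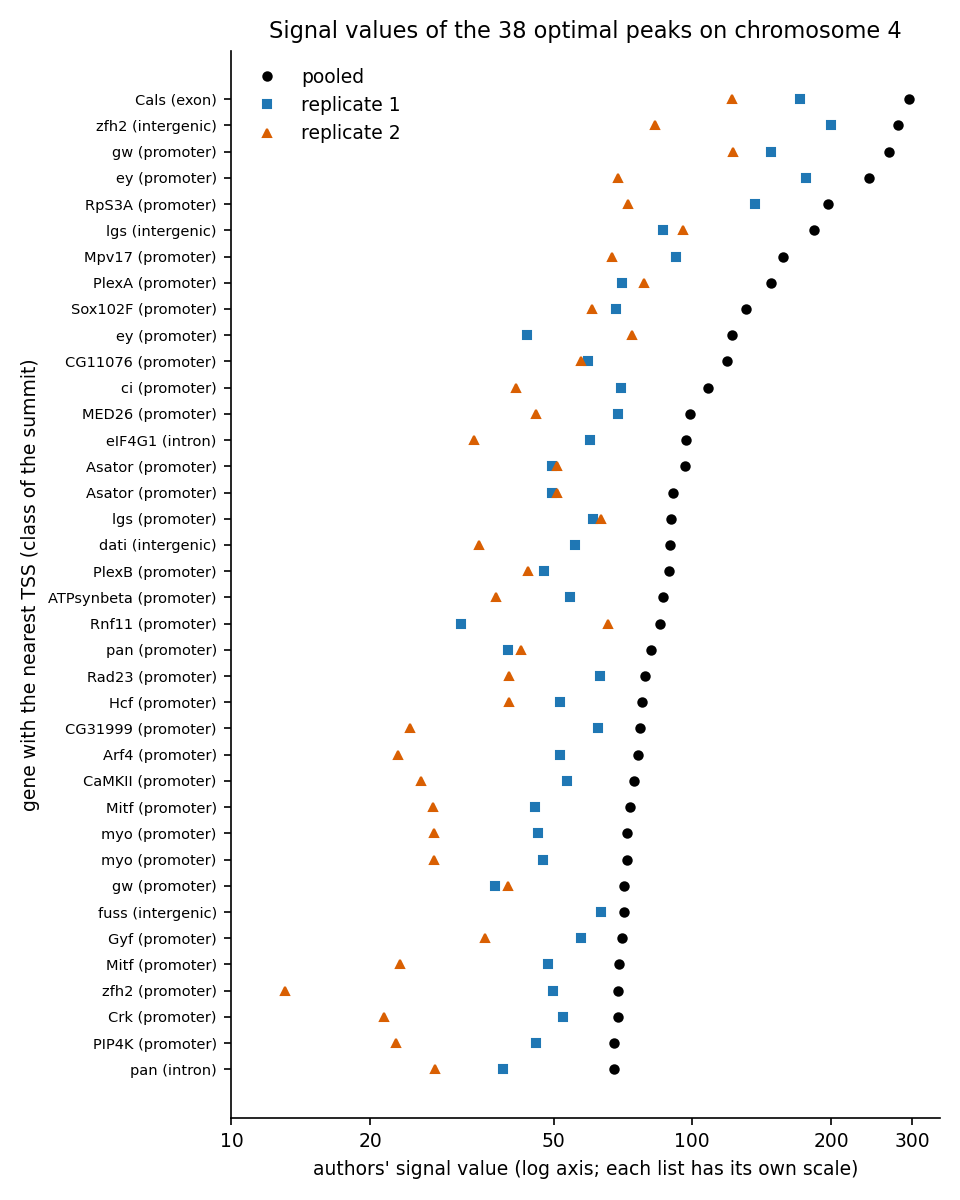
Authors' signal values (x axis, log scale) of the 38 optimal peaks on chromosome 4 in the pooled list and each replicate list, 1 line per peak, ordered by pooled value from 294.8 to 67.5 and named by the gene with the nearest TSS and the class of the summit. The peak near fuss has no replicate 2 point, and both Asator peaks share 1 region in each replicate.

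Optimal peaks sat at promoters. Summits at most 1000 bp from a protein-coding TSS were classed as promoter, and the rest as exonic, then intronic, then intergenic. By this rule 31 of the 38 optimal peaks, 81.6% (exact 95% interval 65.7% to 92.3%), were at promoters, against 53.8% of all optimal peaks of the series and 50.2% (arm X) to 58.0% (arm 2R) on each other arm. Promoter bases are 15.4% of chromosome 4 and 18.9% to 21.8% of the other arms. Introns held 2 optimal peaks or 5.26%, against 27.2% to 37.2% elsewhere, although introns make up 38.1% of chromosome 4 and 33.7% to 40.5% of the other arms. Of the 31, 21 were upstream and 10 downstream of the nearest TSS, and 22 lay within 150 bp of it. The median distance was 57 bp, against 119.5 to 172 bp on the other arms.

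The 7 optimal peaks outside promoters were the one in the Cals 3′ UTR, 2 in introns and 4 between genes. The intronic peaks were in eIF4G1, a translation initiation factor, with a signal value of 97.1 pooled, 60.1 in replicate 1 and 33.6 in replicate 2, and in pan with 67.5 pooled, 38.9 in replicate 1 and 27.7 in replicate 2. The intergenic ones were those near zfh2 and lgs and, named here only to complete the count, one 11420 bp upstream of dati with 89.3 and one 4444 bp upstream of fuss with 70.9. Outside promoters, then, the optimal set held both the strongest peaks and some of the weakest.

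Weaker regions were spread differently. Promoters held 135 of the 631 or 21.4%, exons 151 or 23.9%, introns 256 or 40.6% and intergenic sequence 89 or 14.1%. The bases of chromosome 4 divide into 15.4% promoter, 26.0% exon, 38.1% intron and 20.5% intergenic. The weaker regions thus came close to the make-up of the chromosome itself, with more at promoters and fewer between genes. On the other arms only 5.95% to 7.35% of weaker regions had exonic summits, although exons outside promoters are 13.8% to 17.3% of their bases. Of the 151 exonic summits on chromosome 4, 77 or 51.0% were in coding sequence and 71 or 47.0% in 3′ UTRs, while 70.4% of the exonic bases are coding and 28.2% are 3′ UTR.

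A region at a promoter was also less often an optimal peak here than elsewhere, with 31 of 166 promoter regions or 18.7% against 3087 of 9821 or 31.4% on the other 5 arms. In introns the gap was wider, with 2 of 258 or 0.775% against 14.4%.

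**Figure D3:**
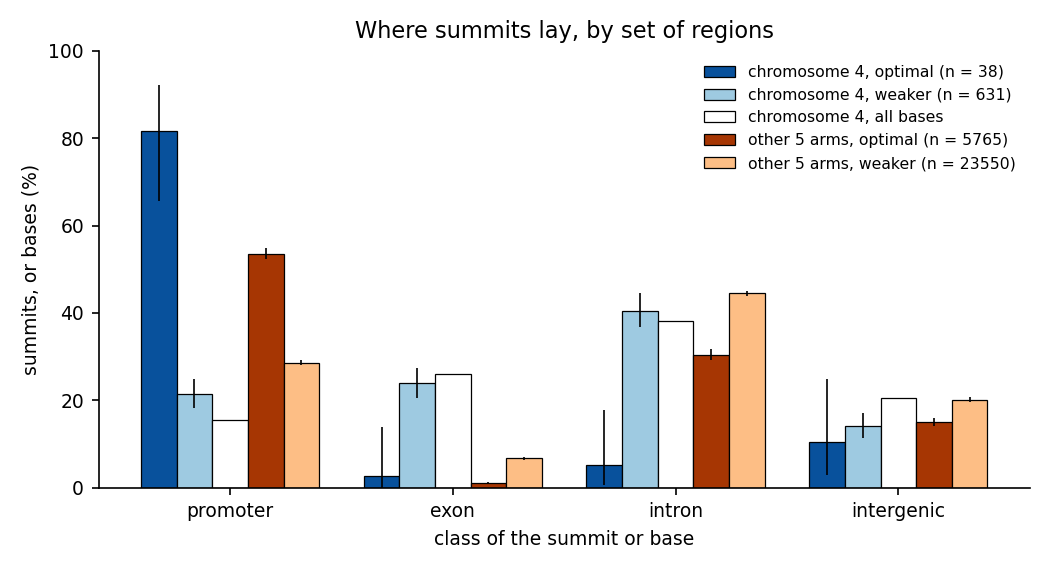
Share of summits in each class (y axis, %) for optimal peaks and weaker regions of chromosome 4 and of the other 5 arms, with the share of chromosome 4 bases in white; error bars are exact 95% intervals. The optimal peaks of chromosome 4 stand at 81.6% promoter, and its weaker regions at 23.9% exon against 6.73% on the other arms.

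Nearly every gene of the chromosome had a region at its promoter. Of 80 protein-coding genes, 28 or 35.0% (exact 95% interval 24.7% to 46.5%) had an optimal peak there, against 22.9% of all protein-coding genes and 20.4% to 24.5% on each other arm. A further 51 had weaker regions alone, so that 79 of 80 had some region, against 36.9% to 45.9% elsewhere. The exception was fd102C, a forkhead box gene. Beside these shares stands the coverage by regions given above, 18.5% of chromosome 4 against 6.80% to 8.88%. The number of TSSs also differs, with 142 for these 80 genes and 19643 for all 13981 protein-coding genes. How far coverage or TSS number sets the shares was not tested. Of the 31 promoter peaks, 5 lay within 1000 bp of TSSs of 2 genes, and 7 genes had 2 or more optimal promoter peaks. Every group of genes that follows is a list chosen with results of these data known and is described by its counts.

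**Figure D4:**
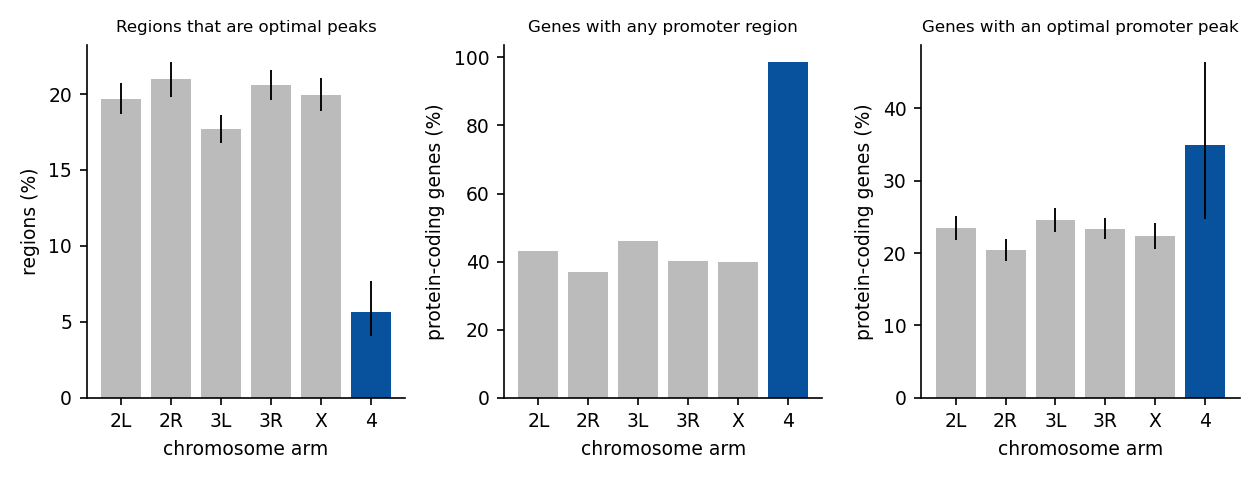
Percent of regions that are optimal peaks, percent of protein-coding genes with any region at a promoter and percent with an optimal peak there (y axes) for the 6 chromosome arms, with chromosome 4 in blue; error bars in the first and last panel are exact 95% intervals. Chromosome 4 is lowest in the first panel (5.68%) and highest in the others (98.75% and 35.0%).

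Among 16 genes of transcription and development, 9 had an optimal promoter peak and 7 had weaker regions alone. The strongest were at ey and Sox102F, described above, followed by ci, the transcription factor of Hedgehog signalling, with a signal value of 108.1 pooled, 70.1 in replicate 1 and 41.4 in replicate 2. MED26, a subunit of the Mediator complex, had 99.0, 69.2 and 45.8 in that order. The other 5, named to complete the count, were lgs, a cofactor of Wnt signalling, with 90.1, pan with 81.5, Hcf, a chromatin cofactor, with 77.8, Mitf, a bHLH factor of lysosome genes, with 73.4, and zfh2 with 68.9. NfI and fuss were among those without, with strongest promoter values of 19.1 and 22.6. The other Pax genes, singled out after their values were seen, had weaker regions alone, toy with 25.1 and sv with 24.4, far below ey. With replicate 2 alone zfh2 had no promoter region among the strongest, and with replicate 1 alone pan had none.

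Among 12 genes of signalling and guidance, 6 had an optimal promoter peak. PlexA was the strongest, followed by myo, whose strongest promoter peak is the one shared with ey at 122.1, and by Asator, a kinase gene, with 96.6 pooled, 49.7 in replicate 1 and 50.8 in replicate 2. PlexB, the other plexin of the fly, had 89.2 pooled, 47.6 in replicate 1 and 44.1 in replicate 2. Crk and PIP4K completed the 6 at the lower edge of the optimal set. The activin ligand gene Actbeta with 38.9 and the kinase gene CaMKI with 62.1 had weaker regions alone. So did mav, whose strongest promoter region had 59.2 pooled, 55.8 in replicate 1 and no overlapping region in replicate 2. Taking the replicates singly, CaMKI and mav each had one of the strongest regions in replicate 1. Crk lacked such a region in replicate 2, and PIP4K lacked one in each. Within 500 bp of a TSS Asator had no optimal peak.

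The genes of metabolism and transport are those nearest to the known role of Hnf4, and 2 of 6 had an optimal promoter peak. ATPsynbeta, the catalytic subunit of mitochondrial ATP synthase, had its strongest at 118.7 pooled, 59.5 in replicate 1 and 57.4 in replicate 2, a peak that lay 32 bp upstream of a TSS of CG11076 and 477 bp from its own. Its nearer peak, 39 bp upstream, had 86.3 pooled, 54.3 in replicate 1 and 37.5 in replicate 2. Zip102B, a zinc transporter, shared a peak with Rnf11 that had 84.9 pooled, 31.5 in replicate 1 and 65.6 in replicate 2 and lay 779 bp from its own TSS and 57 bp from that of Rnf11. The lipid carrier gene apolpp, which encodes the main lipoprotein of the fly's blood, had no optimal peak, and its strongest promoter region had 54.2 pooled, 22.8 in replicate 1 and 34.9 in replicate 2. Gat, a transporter of the neurotransmitter GABA, had 27.3. The calls at apolpp and Zip102B turned with a single library, while that at ATPsynbeta held with each replicate alone. With replicate 2 alone, apolpp had a promoter region among the strongest, and with replicate 1 alone Zip102B had none, nor did it within 500 bp of a TSS. Both optimal calls of this list involve peaks that another gene's TSS is also near.

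Genes of translation and RNA had an optimal promoter peak in 3 of 4 cases: gw, RpS3A and Gyf, a translation regulator, with 70.3 pooled, 57.5 in replicate 1 and 35.6 in replicate 2. The promoter of eIF4G1, the remaining member, had 49.0, while the peak in its intron at 97.1 was optimal. With replicate 2 alone its promoter had a region among the strongest. In the synapse list 1 of 7 had one, Cals, through a peak of 76.2. It lay 833 bp from the Cals TSS and 23 bp from that of Arf4, so that Cals had no optimal peak within 500 bp. A weaker region 21 bp upstream of the Cals TSS had 51.3 pooled, 11.4 in replicate 1 and 43.5 in replicate 2. Its replicate 2 region, at rank 3353, was among the strongest of that replicate. Cadps and dpr7 had weaker regions alone, with 56.2 and 18.1. Among 3 genes of the cytoskeleton and muscle none had an optimal promoter peak, and the strongest regions had 34.9 at Ank and 26.8 at bt. Of 3 genes of DNA repair and trafficking Rad23 had one, with 79.1 pooled, 63.2 in replicate 1 and 40.1 in replicate 2, whereas Arl4, the strongest region outside the optimal set, and Tdg did not; with replicate 2 alone Arl4 had one of the strongest. The 29 genes in no list had 6. The shares ran from 0 of 3 to 3 of 4 in groups this small, and none of them was tested against the 28 of 80.

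The optimal peaks stood in 28 places when peaks less than 3000 bp apart were joined, and 22 of these held a single peak. One group of 4 spanned chr4:695155-697816 and covered the promoters of the divergent genes myo and ey, with pooled signal values from 72.0 to 242.4. The other, chr4:1027114-1031854, ran over PlexA, Mpv17, CG11076 and ATPsynbeta with values from 86.3 to 157.7. When the chromosome was cut into 10 stretches of equal length, there were 29 to 91 regions and 1 to 7 optimal peaks in each stretch, and the last region ended at position 1272255 of 1348131.

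Nearly all optimal peaks overlapped regions of both replicates, as did those of the other arms, while 49.3% of the weaker regions did. Of the 669 regions, 499 overlapped a region of replicate 1 by at least 1 bp, 489 one of replicate 2, and 348 both, while 29 overlapped neither. A replicate region could count for several pooled regions. The overlaps rest on 422 distinct regions of replicate 1 and 423 of replicate 2. The share with both was 52.0%, against 62.2% of all regions and 60.4% to 64.4% on each other arm. Among the optimal peaks 37 of 38 or 97.4% had both, against 97.1% of all optimal peaks, and the optimal list was itself made from these replicates. The exception was chr4:982875-983001, near fuss, with a signal value of 63.2 in replicate 1 and no region in replicate 2. In the weaker set the count was 311 of 631, against 51.3% to 55.7% elsewhere. An overlap by chance is easier where regions are dense, and the replicate lists covered 16.4% and 16.5% of chromosome 4 against 6.97% to 8.66% and 6.53% to 8.92% of the other arms, so the shares of different arms are not on equal footing.

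A stricter measure asked whether an optimal peak overlapped the strongest 5817 regions of both replicates. On chromosome 4 this held for 22 of 38 or 57.9%, against 71.0% of all optimal peaks and 68.5% to 73.1% on each other arm. No interval was computed for this share of only 38 peaks, and its gap to the other arms was not tested. A further 9 met the measure in replicate 1 alone, 4 in replicate 2 alone and 3 in neither. Among the 631 weaker regions 7 met it in replicate 1, 15 in replicate 2 and 0 in both. Some of these weaker regions met it through a replicate region that also overlapped an optimal peak. Examples lie beside the optimal promoter peaks of Rnf11 and pan (replicate 2) and of zfh2 (replicate 1). Over the 348 regions found in both replicates, the signal values of replicate 1 and replicate 2 had a rank correlation of 0.51, against 0.71 to 0.76 over the regions of each other arm, and a Pearson correlation of log2 values of 0.68 against 0.81 to 0.84. Within the 37 optimal peaks the rank correlation was 0.53 and within the 311 weaker regions 0.35. These correlations are across regions of the same 2 samples, which share libraries and control, and are descriptions. Among regions found in both replicates, 37 of 348 were optimal peaks on chromosome 4, against 5614 of 18299 on the other 5 arms. Correlations within optimal or weaker regions of other arms were not computed. The 38 optimal peaks of chromosome 4 span a narrower range of signal values than the 1010 to 1360 of each other arm. How far these differences set the correlations was not tested.

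**Figure D5:**
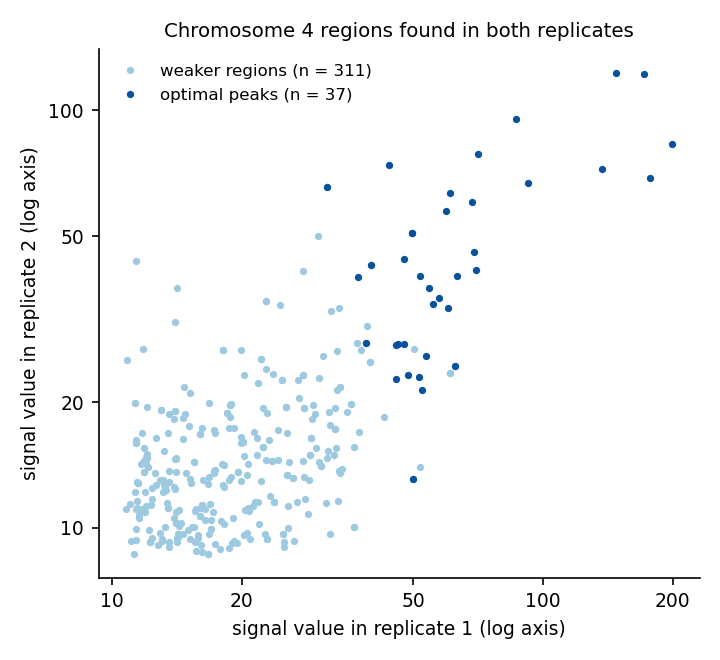
Authors' signal values in replicate 1 (x axis) and replicate 2 (y axis), both on log scales, of the 348 chromosome 4 regions that overlap a region in both replicates, with 37 optimal peaks in dark blue and 311 weaker regions in light blue. The optimal peaks fill the upper right, and the weaker regions form a cloud with little order (rank correlation 0.35).

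Support among weaker regions differed by location. At promoters 98 of 135 or 72.6% overlapped regions of both replicates, between genes 45 of 89 or 50.6%, in exons 71 of 151 or 47.0%, and in introns 97 of 256 or 37.9%. The median pooled signal value was 26.8 at promoters and 21.4 to 22.4 in the other classes. The weaker promoter regions were therefore both the strongest of the weaker set and the ones most often found in each replicate.

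Transposable elements make up 25.1% of the bases of chromosome 4 in the annotation, against 4.05% to 7.75% of the other arms. Of the 38 optimal summits 0 lay in one (a limit of 3 counts gives a share of up to 7.89%, and the exact interval reaches 9.25%), and of the 631 weaker summits 50 or 7.92% did, against 0.419% to 1.52% on the other arms. The element most often found was INE-1, a short and abundant family of this chromosome with 344 annotated copies, which alone held 25 of the 50 summits. The family 1360, with 60 copies, alone held 7, and some further summits lay where INE-1 or 1360 overlaps another element. These weaker regions had signal values up to 37.8 with a median of 21.0, and 16 of 50 or 32.0% overlapped regions of both replicates, against 295 of 581 or 50.8% of the weaker regions outside elements. Both sets of summits were therefore in elements less often than the bases of the chromosome are. Reads of repeated copies may be hard to place, and how the authors treated them is not given in the sources used here.

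In base composition the regions resembled their chromosome. Over the whole width of a region, G and C made up on average 34.2% of the bases of optimal peaks and 32.9% of those of weaker regions, where chromosome 4 has 35.2% and the other arms 41.6% to 42.6%. On those arms the values were 38.3% to 39.4% in optimal peaks and 36.8% to 37.9% in weaker regions. Repeat-masked bases were on average 18.4% of an optimal peak and 26.0% of a weaker region, against 28.1% of the chromosome.

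Few of the regions held a known motif. The search took in both strands, up to 100 bp on either side of each summit. The Hnf4 site CAAAGTCCA was at 0 of 38 optimal summits, which allows a share of up to 7.89% by a limit of 3 counts and of 9.25% by the exact interval, and at 1 of 631 weaker summits, in an intron of 4E-T, which encodes a partner of the cap-binding factor eIF4E. On the other arms it was at 61 of 5765 optimal summits or 1.06% and at 87 of 23550 weaker ones or 0.369%, and in the whole list at 0.497%. With the share of 1.06% found elsewhere, 38 peaks are too few to tell chromosome 4 from the rest. The wider direct repeat with 1 base between its repeats, which overlaps the Hnf4 site, was at 0 of 669 regions, against 0.307% in the whole list. That no match was found says only that these letters are not in these windows. The 4E-T region had a signal value of 23.4 pooled, and its site, in capitals here, lay 27 bp from the summit.
4E-T intronic region, chr4:952548-952748: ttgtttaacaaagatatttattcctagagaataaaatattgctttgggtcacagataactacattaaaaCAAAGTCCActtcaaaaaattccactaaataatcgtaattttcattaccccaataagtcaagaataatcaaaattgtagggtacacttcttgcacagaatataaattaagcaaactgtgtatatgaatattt

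The DRE, TATCGATA, the site of the factor Dref at promoters of housekeeping genes, was the motif most often found at optimal summits among the 7 searched. It was at 4 of 38 optimal summits or 10.5% (exact 95% interval 2.94% to 24.8%), all at promoters, which makes 4 of 31 promoter peaks or 12.9%, against 217 of 3087 or 7.03% of the optimal promoter peaks on the other arms. Among weaker regions 13 of 631 or 2.06% held it, and in the whole list 1.66%. Elsewhere 230 of 5765 optimal summits or 3.99% held it, a share that the interval for the 38 covers. The interval for the 31 promoter peaks, 3.63% to 29.8%, likewise covers 7.03%. The 4 peaks are printed with the DRE in capitals, since their promoters belong to genes of different roles, and they had pooled signal values of 148.3, 122.1, 99.0 and 67.6. In the ey and myo peak and the PlexA peak the centre of the DRE was 50.5 bp from the summit, at PIP4K 33.5 bp and at MED26 6.5 bp.
PlexA promoter peak, chr4:1027114-1027314: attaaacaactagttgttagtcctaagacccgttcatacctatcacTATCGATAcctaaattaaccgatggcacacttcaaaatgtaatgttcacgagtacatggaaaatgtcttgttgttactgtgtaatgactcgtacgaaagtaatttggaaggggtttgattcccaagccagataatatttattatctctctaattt
ey and myo peak, chr4:696788-696988: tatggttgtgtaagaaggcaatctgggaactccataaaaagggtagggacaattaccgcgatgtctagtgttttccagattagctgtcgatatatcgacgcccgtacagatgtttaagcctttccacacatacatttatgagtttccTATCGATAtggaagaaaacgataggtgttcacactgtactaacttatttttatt
MED26 promoter peak, chr4:787615-787743: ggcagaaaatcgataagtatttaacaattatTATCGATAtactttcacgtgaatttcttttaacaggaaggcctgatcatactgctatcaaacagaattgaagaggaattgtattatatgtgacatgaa
PIP4K promoter peak, chr4:1196849-1196987: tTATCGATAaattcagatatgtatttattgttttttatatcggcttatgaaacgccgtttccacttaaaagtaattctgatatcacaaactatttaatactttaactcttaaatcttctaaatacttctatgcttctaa

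Each of the other motifs was at no more than 1 optimal summit. The M1BP site GGTCACAC was at Rad23, the repeat GAGAGAG at Rnf11 and the GATA site AGATAAG at Mitf, each 1 of 38 or 2.63%. In the whole list these motifs were at 1.00%, 3.93% and 3.66% of regions. On the other arms GAGAGAG was at 6.09% of optimal summits and at 3.48% of weaker ones, and on chromosome 4 at 1.27% of weaker ones, 8 of 631. AGATAAG was at 15 of 631 weaker regions or 2.38%, against 3.88% of weaker regions elsewhere. The Hnf4 site read backwards, ACCTGAAAC, which served as a control, was at 0 of 669, against 0.107% in the whole list.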

How the data were processed

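Hnf4 was mapped by chromatin immunoprecipitation with sequencing in 2 biological replicates. Per the deposited file descriptions, the authors deposited narrowPeak lists in dm6 and dm3: relaxed lists per replicate and for the pool, and an optimal list by the irreproducible discovery rate. The deposited signal values measure enrichment on a scale that no source used here explains. The deposited -log10 q values were printed and not tested. Aligner and peak caller: not given in the sources used here. These lists hold no read counts, which leaves the depth unknown.

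From these lists, regions were assigned to genes of Ensembl release 115 (13981 protein-coding genes, 19643 TSSs) and to the Release 6 sequence of RefSeq, all 1-based in dm6. Where several replicate regions overlapped a pooled region, the strongest was taken. Exact 95% intervals are given for some of the shares. The 2 samples form 1 group, so nothing was tested. The measures were tried on simulated data. Named genes were those within 5000 bp of the 20 strongest peaks, and from each of 7 lists the 4 members whose promoter peaks were strongest, plus 2 without any, alphabetically. All 51 listed genes were matched, 1 by a synonym. Members, lists and motifs were chosen with earlier results of these data known. Alternatives were other windows and overlaps, stricter peak sets, each replicate alone and dm3. Scipy 1.17.1 and pandas 2.3.3 under Python 3.11.15 did the computation, with figures by matplotlib 3.10.9.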

Additional observations from a re-analysis of the deposited data

How the results depend on the processing

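No paired analysis was possible because the 2 replicates form 1 group. With the replicates taken 1 at a time, chromosome 4 had 593 to 622 regions, 5.73% to 5.95% of them among the strongest, 25.2 to 27.4 per Mb, 79.4% to 81.1% of these at promoters, 26 to 28 genes and 0 summits with the Hnf4 site. The median signal value was then 42.5 to 59.8, on the scales of the replicate lists. Of the 28 genes, 23 remained with replicate 2 alone, 24 with replicate 1 alone and 20 with each of them. With a TSS window of 500 bp 25 of the 28 remained, without Asator, Cals and Zip102B, and with 2000 bp all 28 did, among 32. The number of optimal promoter peaks also fell at myo, ey and Mitf with 500 bp and rose at CG11076, Mitf, Mpv17, ey and myo with 2000 bp. With the strongest 50% of the optimal peaks of the whole list, chromosome 4 kept 11 of its 38, against 50% of all optimal peaks by construction. These 11 are 1.64% of its regions and 8.16 per Mb, with a median of 184.0 and 9 genes, all among the 28. With the optimal peaks in the strongest regions of both replicates, chromosome 4 kept 22 of 38, against 71.0% of all optimal peaks. These 22 are 3.29% of its regions and 16.3 per Mb, with a median of 103.5 and 16 genes, all among the 28. Such stricter sets are smaller and stronger by construction. With replicate summits within 100 bp in place of any overlap, 173 regions were found in both replicates and the rank correlation was 0.59. The dm3 lists, other windows for TSSs and motifs, an overlap of 50% and counting each interval once moved none of the counts over the whole chromosome by over 1.5 times and no share or median past its interval, and the Hnf4 site stayed at 0 optimal summits. The number of optimal peaks per Mb in dm3 was not run, since the length of chromosome 4 in that build was not used here. Depth is unknown, and 38 peaks limit every share.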
